A study of Drosophila melanogaster with 2 samples.

Results

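Peaks of the CG11696-eGFP fusion at single-direction promoters numbered 696 of the 2897 peaks of the conservative list (24.0%, 95% Wilson interval 22.5 to 25.6). A peak was counted here when its summit, the position of its highest signal, lay within 500 bp of the transcription start site (TSS) of a protein-coding gene, and when no TSS in that window had a protein-coding TSS on the other strand within 1000 bp upstream of it. The remaining peaks comprised 404 at divergent promoters, where such a head-to-head neighbour exists, and 1797 with no protein-coding TSS in the window. The 696 summits had 651 distinct nearest genes. They were spread over 127 peaks on 2L, 140 on 2R, 138 on 3L, 153 on 3R, 136 on X and 2 on chromosome 4. The measurements came from chromatin immunoprecipitation and sequencing of whole *Drosophila melanogaster* embryos aged 0 to 24 h, in 1 group of 2 biological replicates and with no second condition. All embryos of both replicates carried a transgene for CG11696-eGFP, in which CG11696 is joined to a green fluorescent protein, and the antibody was raised against the latter, so the lists describe the tagged protein only. Chromatin was sonicated to 200 to 800 bp, and embryos of all stages and cell types were mixed. The labels do not give the promoter that drives the fusion, and beyond "biological replicate" they do not say how the replicates were obtained.

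CG11696 encodes a predicted zinc finger protein of the ZAD family, whose members in flies bind DNA through C2H2 zinc fingers and pair through the amino-terminal zinc-finger-associated domain. A promoter directs transcription from its TSS. General transcription factors assemble over the core promoter at the TSS itself, and sequence-specific factors commonly bind in the open chromatin just upstream. Fly genes are densely packed, and many start back to back with a neighbour, so that "upstream" of one gene is also "upstream" of the other. A single-direction promoter has no such coding neighbour, so a summit can be placed on its upstream or its downstream side without also being assigned to a gene that runs the other way.

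The DNA under the strongest of these summits is shown first, because its base composition recurs in the comparisons that follow. Each sequence is the summit base with 50 bp on each side, read 5' to 3' on the strand of the gene. The source is the RefSeq copy of Release 6, the assembly of dm6. Capitals mark the longest run made of A and T only. The CBP and Cftr windows each hold another run of the same length, left in lower case. The 6 upstream examples are the strongest whose windows overlap no annotated exon, with 1 chromosome arm not used for sequences. They lie at chr3R:8669303-8669403 (+ strand) for CG8036, a predicted transketolase gene, and chr2L:16533207-16533307 (- strand) for CG5953. The window of CBP, a sarcoplasmic calcium-binding protein gene, is chrX:7337003-7337103 (+ strand), and that of Eogt, whose enzyme adds N-acetylglucosamine to EGF domains, is chr2L:2380984-2381084 (+ strand). Those of fok and CG33116 are chr2L:20085198-20085298 (- strand) and chr2L:19533370-19533470 (+ strand).
CG8036: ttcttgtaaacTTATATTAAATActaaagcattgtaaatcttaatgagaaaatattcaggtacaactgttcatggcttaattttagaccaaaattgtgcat
CG5953: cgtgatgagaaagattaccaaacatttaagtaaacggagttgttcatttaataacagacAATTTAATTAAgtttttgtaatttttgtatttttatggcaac
CBP: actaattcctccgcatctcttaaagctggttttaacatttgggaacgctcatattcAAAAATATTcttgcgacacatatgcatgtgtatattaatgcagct
Eogt: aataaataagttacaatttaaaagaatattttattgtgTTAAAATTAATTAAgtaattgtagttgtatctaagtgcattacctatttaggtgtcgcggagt
fok: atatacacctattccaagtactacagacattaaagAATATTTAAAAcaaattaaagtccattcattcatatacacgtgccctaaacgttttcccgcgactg
CG33116: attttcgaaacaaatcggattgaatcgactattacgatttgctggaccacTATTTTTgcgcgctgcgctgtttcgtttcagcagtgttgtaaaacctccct
Across these 6 windows A and T made up 57.4% at CG33116 to 76.2% at Eogt, and the longest A and T run measured 7 bp at CG33116 to 14 bp at Eogt.
The 2 strongest downstream examples chosen in the same way lie in introns, at chrX:7096639-7096739 (- strand) for Sxl, the master gene of sex determination, and at chr3R:24543185-24543285 (- strand) for Cftr.
Sxl: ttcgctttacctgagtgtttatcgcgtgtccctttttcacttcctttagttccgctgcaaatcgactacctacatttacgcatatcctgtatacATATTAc
Cftr: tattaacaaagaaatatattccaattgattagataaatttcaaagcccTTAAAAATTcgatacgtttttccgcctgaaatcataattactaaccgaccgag
Their A and T content was 59.4% at Sxl and 70.3% at Cftr, inside the range of the upstream examples. Windows over exons were left out, and 92 of the 144 downstream summits lay in the 5' UTR. Over all downstream peaks the median was 57.4%, against 67.3% over all upstream peaks.

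Summits at single-direction promoters lay mainly on the upstream side of the TSS. Positions are given in bp relative to the nearest coding TSS, negative upstream. Of the 696 summits, 551 were upstream (79.2%), 1 was at the TSS and 144 were downstream (20.7%, 95% Wilson interval 17.8 to 23.9). The median position was -146 bp, with quartiles of -253 and -38.0 bp. Lower-scoring candidate peaks of the same ranked list served as background. These sub-threshold peaks had an authors' score below 830, the lowest in the thresholded lists, and overlapped no thresholded peak. At 7503 sub-threshold summits chosen by the same position rule the median was 17.0 bp, and 3923 were downstream (52.3%, 51.2 to 53.4). The downstream share was lower at the thresholded peaks, by a difference of -31.6 percentage points (95% interval -34.7 to -28.2, two-sided Fisher's exact test, Benjamini-Hochberg adjusted p = 3.19e-60 over 5 tests). Peaks are not independent replicates, so this test and the others describe the peaks of these lists.

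The summits were concentrated between 300 and 1 bp upstream, where 410 of them lay (58.9%, against 31.4% of the sub-threshold summits). The densest 100 bp ran from -200 to -100 bp, with 204 summits (29.3%, against 10.2% of sub-threshold summits). The share then dropped toward the TSS, to 15.4% from -100 to 0 bp and 9.20% from 0 to 100 bp. Beyond the TSS the lowest share was 1.58%, or 11 summits, from 200 to 300 bp. The share was 2.87% from 300 to 400 bp and 4.02% from 400 to 500 bp. Sub-threshold summits had no such concentration, with 8.01% to 13.2% in every 100 bp.

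**Figure D1:**
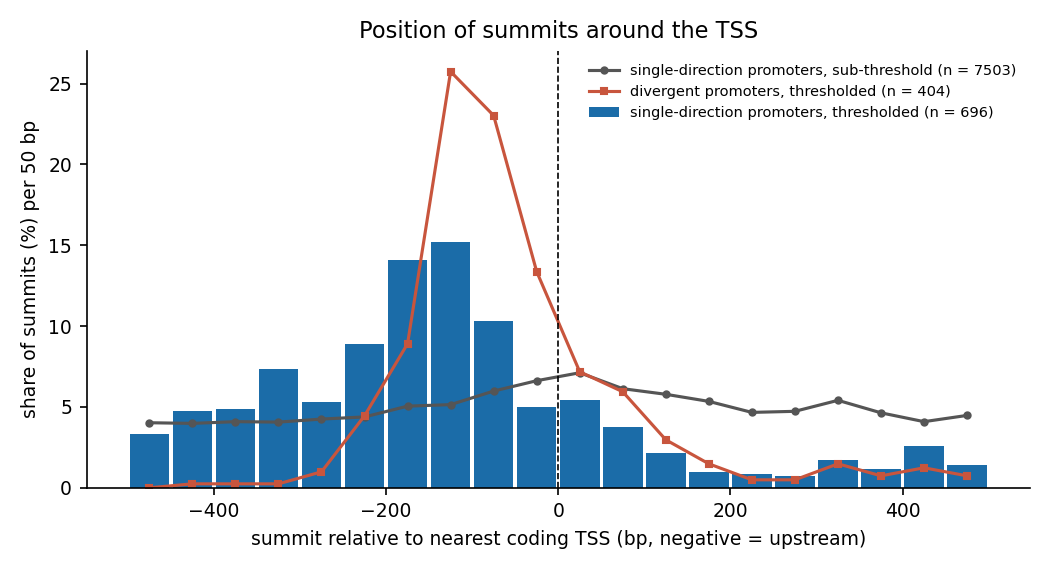
Share of summits (%) in each 50 bp against position relative to the nearest coding TSS (bp, negative upstream) for 696 thresholded peaks at single-direction promoters (bars), 7503 sub-threshold peaks there (grey line) and 404 thresholded peaks at divergent promoters (red line). The bars are highest between -200 and -100 bp, while the grey line is highest from 0 to 50 bp, at 7.12%.

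Distance taken without side gave no such contrast. Summits within 100 bp of the TSS numbered 172 (24.7%, 95% Wilson interval 21.7 to 28.1), against 26.0% of sub-threshold summits. The difference of -1.26 points did not pass the test (95% interval -4.48 to 2.21, two-sided Fisher's exact test, adjusted p = 0.622), and it depended on the settings. With a 250 bp TSS window it was -9.31 points (Fisher's exact test, adjusted p = 1.9e-04), and with a 1000 bp window it was 3.44 points in the other direction (adjusted p = 0.0089, Fisher's exact test). From the thresholded list of either replicate alone it was -6.31 to -4.49 points, both past the threshold of 0.05. The side did not depend on the settings in this way: the downstream share was lower under each of the 13 alternatives run, with differences of -37.5 to -19.9 points.

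The side did not separate single-direction from divergent promoters under the main settings, but the spacing was visibly different. At divergent promoters 91 of 404 summits were downstream of their nearest coding TSS (22.5%, 95% Wilson interval 18.7 to 26.8). The difference was -1.84 points (95% interval -7.01 to 3.11, two-sided Fisher's exact test, adjusted p = 0.622). It passed the threshold for the stronger 50% of peaks, at -8.25 points (Fisher's exact test, adjusted p = 0.017), with a 2000 bp upstream window, at -5.50 points (adjusted p = 0.045, Fisher's exact test), and without replicate 2, at -7.90 points (adjusted p = 0.013, Fisher's exact test). Divergent summits lay nearer the TSS, with a median of -88.5 bp and 49.5% within 100 bp. Between head-to-head genes a summit cannot be far upstream of one TSS without approaching the other, so these distances are given as a description with no test.

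What the annotation holds differs between the sides, and the features under the summits are therefore given beside the side result. Intergenic sequence held 275 of the 696 summits (39.5%, against 22.4% of sub-threshold summits). Introns of any gene, longer isoforms of the same gene included, held 256 (36.8%, against 25.1%), of which 212 were upstream of the nearest TSS. The 5' UTR held 120 (17.2%, against 23.3%), of which 92 were downstream. Coding exons held 9 summits (1.29%), while 24.5% of sub-threshold summits were in them. Few summits in coding exons thus went with few summits downstream. With coding exons left out of both groups the downstream share was 19.9% against 41.4%, a difference of -21.5 points (two-sided Fisher's exact test, adjusted p = 2.4e-29). Sub-threshold peaks were defined by score and not by signal value, but most were weaker. Their median signal value was 28.2 and their highest 163, against a median of 116 at the thresholded peaks. Against the strongest 10% of them alone the difference was -19.9 points (Fisher's exact test, adjusted p = 4.5e-16). Both of these settings were chosen after seeing the data.

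**Figure D2:**
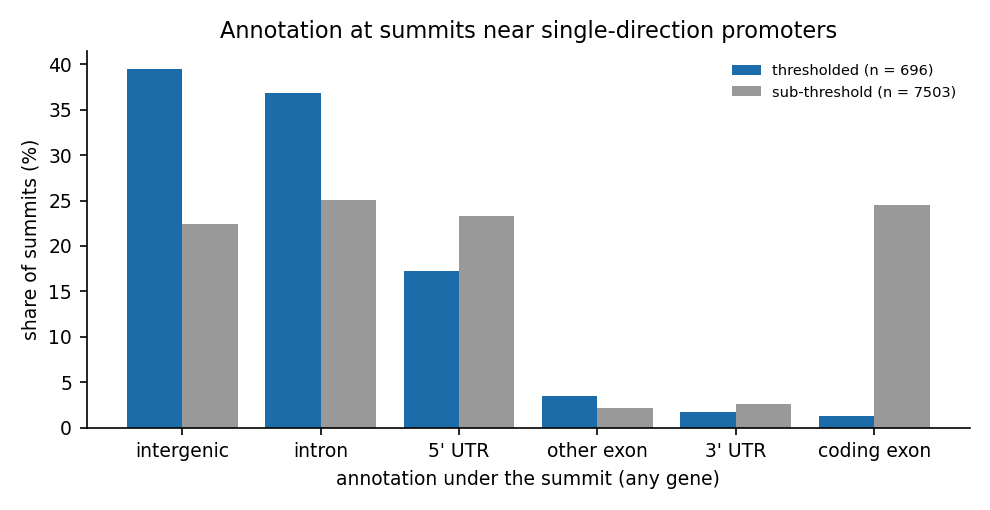
Share of summits (%) by the annotation under them, for 696 thresholded (blue) and 7503 sub-threshold (grey) peaks at single-direction promoters. Coding exons hold 1.29% of the thresholded and 24.5% of the sub-threshold summits.

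The upstream share varied among groups of these peaks. By chromosome it ran from 71.4% on 2R (95% Wilson interval 63.5 to 78.3) to 85.0% on 2L (77.8 to 90.2), with 78.3% on 3L, 79.4% on X and 81.7% on 3R. It was 87.4% among the 174 strongest peaks by signal value (81.6 to 91.5) and 71.3% among the 174 weakest (64.1 to 77.5). Where the next coding gene upstream was on the same strand it was 81.6% (77.6 to 85.1, n = 414), and where that gene was on the other strand 75.5% (70.2 to 80.2, n = 282). At the 83 summits whose TSS lies inside another coding gene it was 83.1%. Upstream summits were the majority in each of these groups. The lowest share among the groups examined was 68.3% (58.8 to 76.4), at 104 summits with an other-strand coding TSS beyond 1000 and up to 2000 bp upstream. None of these differences was tested.

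Signal strength, the authors' signal value in units of their peak caller, had a median of 116 over the 696 peaks, with a lower quartile of 83.5 and a range of 12.6 to 2101. Divergent promoter peaks had a median of 120 and peaks away from coding TSSs one of 110, so the kinds of site were of similar typical strength. Of the 100 strongest of all 2897 peaks, 39 were at single-direction and 23 at divergent promoters. Single-direction promoters held 24.0% of all 2897 peaks, and divergent promoters held 404 of them. Upstream peaks had a median of 123 and downstream peaks one of 99.3. The bins with the highest medians were -300 to -200 bp, at 154, and -200 to -100 bp, at 146. The bin from 0 to 100 bp had the lowest, at 89.5. Among the 25 strongest peaks, with signal values of 770 to 2101, 24 were upstream and 20 of them within 300 bp.

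**Figure D3:**
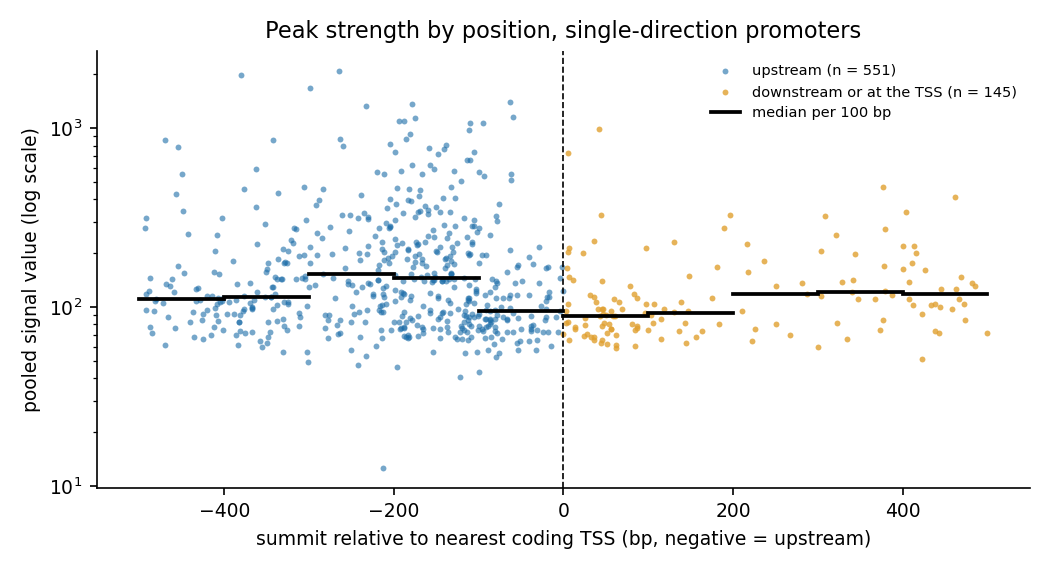
Pooled signal value (log scale) against summit position relative to the nearest coding TSS (bp) for each of the 696 peaks, 551 upstream (blue) and 144 downstream and 1 at the TSS (orange), with the median of each 100 bp bin as a black line. The highest medians, 154 and 146, are in the 2 bins from -300 to -100 bp.

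The strongest peak, at CG8036, was at -265 bp (chr3R:8669147-8669627) and had a signal value of 1087 in replicate 1 and 976 in replicate 2. Its summit was nearer to the start of a tyrosine transfer RNA gene, tRNA:Tyr-GTA-1-8, at 179 bp, than to that of CG8036. The peak at CG5953, at -380 bp, had values of 908 and 1019 (replicates 1 and 2). Neither replicate was the higher at both of these peaks. The peak at CBP, at -299 bp, had values of 845 and 815. That at Eogt, at -63 bp, had values of 655 and 731. That at fok, at -178 bp, had values of 648 and 703. The gap between replicates at several of these peaks was as large as that between neighbouring peaks. The order of CG8036 and CG5953 is not settled, while both replicates placed CBP, Eogt and fok in that order. Lpin, whose product is a phosphatidate phosphatase of lipid synthesis, followed at -233 bp with values of 619 and 674. CG33116 had its summit at -59 bp and CG10165 at -175 bp.

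The next of the 25 strongest peaks were upstream as well. The peak at sgg, which encodes the glycogen synthase kinase of Wnt signalling, was at -194 bp with values of 514 in replicate 1 and 544 in replicate 2. That at shep, an RNA-binding protein gene, was at -188 bp with values of 508 and 594. Syx17, a SNARE of autophagosomes, had its summit at -110 bp, with values of 504 and 535. The positions of all these summits fell within the upstream 300 bp. Rab5, the GTPase of early endosomes, had its summit at -263 bp, Syx4, a SNARE of the plasma membrane, at -158 bp, and RapGAP1, a GTPase-activating protein, at -181 bp. Mnt, the repressor that opposes Myc, had one at -205 bp and dod, a peptidyl-prolyl isomerase gene, at -111 bp. Farther upstream lay the peaks of jar, which encodes myosin VI, at -470 bp, E(spl)m7-HLH, a repressor switched on by Notch, at -455 bp, and CG2865, at -342 bp. The others among the 25 were at CG14100, Rtnl1, aru, Mgstl and CG10660, at -95 to -260 bp.

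Strong downstream peaks were few. The 1 downstream peak of the 25 strongest was at CG4098, at 42 bp in the 5' UTR, with values of 438 in replicate 1 and 547 in replicate 2. Hr78, a nuclear receptor gene, had a summit at 6 bp with values of 341 and 363. Both lie close to the TSS. Farther in, Ero1L, an oxidase of the endoplasmic reticulum, had a summit at 197 bp with values of 144 and 164. The strongest from 200 to 300 bp was at CG18622, at 217 bp, with values of 101.2 and 137, below every pair named above. Beyond 300 bp the strongest were the Sxl peak shown above, at 377 bp with values of 259 and 196, and that at ph-p, a Polycomb group gene, at 462 bp with values of 214 and 213. The ttk peak, at a zinc finger repressor gene, was at 237 bp with values of 67.0 and 94.6, Sod1, for superoxide dismutase, had one at 413 bp and Trpm, a cation channel gene, one at 131 bp.

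The replicates gave the same picture of side. A ranked peak of replicate 1 overlapped 692 of the 696, and a ranked peak of replicate 2 overlapped 692, not all of them the same. At the 688 with both, the summits of the 2 replicates were a median of 22.0 bp apart, with 77.0% within 50 bp. They fell on the same side of the TSS at 656 of 688, and 80.1% were upstream by the summits of either replicate. Signal values had medians of 57.4 in replicate 1 and 59.5 in replicate 2, with a median log2 ratio (replicate 2 over replicate 1) of 0.04 and an SD of 0.40 over peaks. Across the 688 peaks Pearson's r of the log2 values was 0.92 and Spearman's rho was 0.82, a description of peaks that were selected in part for holding up in both replicates.

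**Figure D4:**
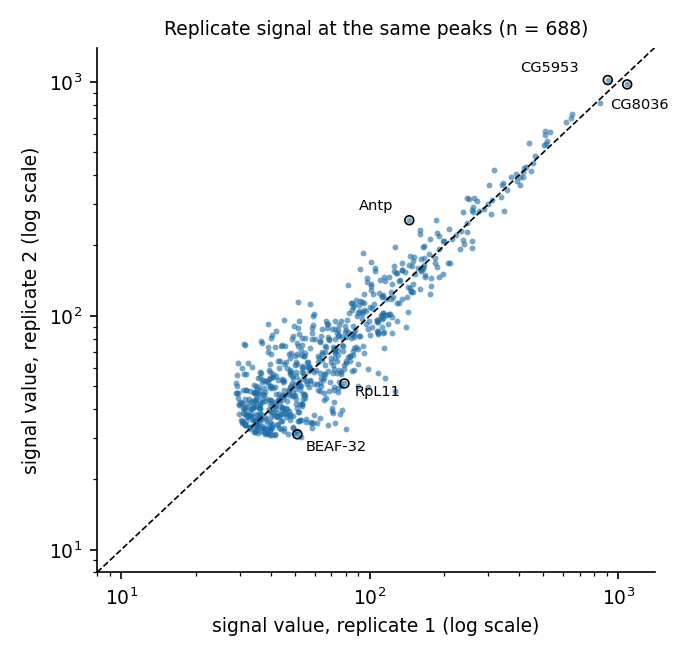
Signal value in replicate 1 against replicate 2 (both log scales) for the 688 peaks at single-direction promoters with a ranked peak in each, with the line of equality dashed. The strongest peaks, CG8036 and CG5953, and 3 others named in the text are circled.

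By the stricter measure of a thresholded peak in each replicate's own list, 382 of the 696 were shared (54.9%, 95% Wilson interval 51.2 to 58.5). Another 70 were in replicate 1 only, 78 in replicate 2 only and 166 in neither, these last passing only in the pooled list. The divergent promoter peaks gave 56.2% (51.3 to 60.9). The difference of -1.30 points did not pass the test (95% interval -7.34 to 4.79, two-sided Fisher's exact test, adjusted p = 0.706). These shares count any overlap of the peaks. With 50% reciprocal overlap required they were 44.4% and 49.0% (difference -4.61 points, Fisher's exact test, adjusted p = 0.25). Peaks in both lists had a median pooled signal value of 188 and were upstream in 84.6%, while those in neither had one of 73.5 and were upstream in 72.3%. Among the 100 strongest of these peaks, the 5 with the largest log2 ratio between replicates, in either direction, were higher in replicate 2 at 4 genes. At Antp, a Hox gene, at -205 bp, the values were 144 in replicate 1 and 256 in replicate 2. The peak of MFS10 at -492 bp had values of 101.4 and 170. Those at amon, which encodes a prohormone convertase, were 127 and 196. Of the remaining pair, CG46309 was higher in replicate 2, at 160 and 232, and Alg3, a mannosyltransferase gene, in replicate 1, at 175 and 124.

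Bound genes were less frequent among those with single-direction promoters. Dividing all 13945 protein-coding genes by annotation alone, 572 of 8893 genes with single-direction promoters only had a summit within 500 bp of a TSS (6.43%, 95% Wilson interval 5.94 to 6.96), against 825 of 5052 genes with a divergent promoter (16.3%, 15.3 to 17.4). The difference was -9.90 points (95% interval -11.1 to -8.77, two-sided Fisher's exact test, adjusted p = 5.19e-74). A summit between head-to-head genes counts for both of them in this comparison. The divergent group takes in every gene with any divergent TSS, and a summit at a single-direction TSS of such a gene also counts. The share of 16.3% is thus not a share bound at divergent promoters alone. Counting each summit for the gene of its nearest TSS alone, a setting chosen after seeing the data, gave 6.27% against 9.60%, a difference of -3.33 points (Fisher's exact test, adjusted p = 4.2e-12). Of the thresholded summits at promoters 63.3% were at single-direction ones, and of the sub-threshold summits 75.7%. The gene of CG11696 itself has a single-direction promoter and had no summit within 500 bp.

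The 6.43% of all genes with single-direction promoters only is the background for the gene lists, which are described by their counts. Cytosolic ribosomal protein genes had 12 of 37 bound (32.4%), and mitochondrial ribosomal protein genes 0 of 15. The signalling list (Notch, Wnt, Hedgehog and EGFR) had 6 of 17 (35.3%), chromatin and architectural proteins 3 of 8 (37.5%), and heat shock proteins 2 of 8. Translation factors had 4 of 26 (15.4%) and segmentation and Hox genes 3 of 23 (13.0%). Vesicle tethering and trafficking had 2 of 36 (5.56%), near the background. No gene was bound among 22 proteasome genes and 14 general transcription and Mediator genes. These counts leave out genes that also have a divergent promoter. Such genes can still be the nearest gene of one of the 696 peaks, so the peaks described next come from 8 signalling genes, 4 chromatin genes, 3 heat shock genes and 5 translation factor genes. The lists with no bound gene are small, and at the background share each would hold few.

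Peaks at cytosolic ribosomal protein genes lay close to the TSS. The 13 peaks, at 12 genes, had a median position of -9.00 bp, with 12 within 100 bp and 9 within 30 bp, against a median of -146 bp for all 696. Their signal values ran from 74.0 to 167, with a median of 117. RpL24 had its summit at -18 bp with values of 74.1 in replicate 1 and 84.7 in replicate 2. RpL27A had its at 4 bp with values of 74.8 and 86.6. RpL17 had a summit at 7 bp, with values of 77.0 and 75.1, and another at -254 bp. That at RpL11 was at -29 bp with values of 79.2 and 51.4, one of the wider replicate gaps among the ribosomal protein peaks named. Of the translation factors, eEF1gamma, an elongation factor subunit, was at 5 bp, eEF1alpha1, which delivers aminoacyl-tRNA to the ribosome, at -54 bp, eIF2D at -143 bp and eIF6, which keeps ribosomal subunits apart, at -114 bp. The eIF6 peak was by far the strongest of them, with values of 303 and 361.

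Peaks at the signalling genes lay farther out. All 8 were upstream, from -93 to -401 bp, with a median of -244 bp. Of all 696 peaks 79.2% were upstream, with a median of -146 bp over all of them. Beside sgg they included nkd, an antagonist of Wnt signalling, at -149 bp with values of 107 in replicate 1 and 93.7 in replicate 2. At spi, the main ligand of the EGF receptor, the summit was at -272 bp with values of 50.8 and 76.3. At aos, an antagonist of that receptor, it was at -377 bp with values of 55.2 and 69.2. The others were at pnt, ptc, N and Egfr. Of the heat shock genes, the small chaperone genes Hsp27, Hsp26 and Hsp22 had summits at -160, -87 and -403 bp, with Hsp27 the strongest at 173 and 184. Of the chromatin genes, 3 of 4 peaks were downstream: those of ph-p, of Trl, which encodes the GAGA factor, at 148 bp, and of pita, an insulator protein gene, at 145 bp. The fourth, at the insulator gene BEAF-32, was at -67 bp with values of 51.2 and 31.2. Of the segmentation and Hox genes Antp was bound at -205 bp, bcd, the anterior morphogen gene, at -21 bp and hry, a pair-rule gene, at 87 bp.

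Some genes had peaks at several of their promoters. In all, 38 genes had 2 or more of the 696 peaks and 6 had 3 or more, and at 35 of the 38 each peak had its own nearest TSS. The 6 are named here after their values were seen. At Ptpmeg2, a tyrosine phosphatase gene, the 3 summits were at -218, -173 and -207 bp from different TSSs, and at Rtnl1, whose product shapes the endoplasmic reticulum, at -284, -186 and -257 bp. Those of dnc, the cyclic AMP phosphodiesterase gene, were at -348, -285 and -333 bp. Even spacing was not general, since the peaks at Moe, Svil and jar lay on both sides. Over all 38 genes 53 of 83 peaks were upstream (63.9%, below the 79.2% of all 696), and 14 genes had all of theirs upstream.

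Transcripts other than coding ones begin near some of these summits. A noncoding TSS lay within 500 bp of 43 of the 696, most often of a noncoding RNA (34), otherwise of a transfer RNA (5), a small nucleolar RNA (2) or a pseudogene (2). It was nearer than the coding TSS at 9. At 40 peaks a noncoding TSS on the other strand lay within 1000 bp upstream of the coding TSS. Counting such TSSs as divergent left 656 peaks and a downstream share of 20.4%. Most windows were simple in coding terms, with 586 of the 696 holding 1 coding TSS position and 1 window holding coding TSSs on both strands.

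The DNA at the summits was on the whole richer in A and T than its surroundings, though not at every peak: the printed window of CG33116 has 57.4%, and that of the downstream CG4098 peak has 48.5%. Within 50 bp to either side of the summit the median A and T content was 66.3% over the 696 peaks (quartiles 57.4 and 72.3), against 57.4% in windows of that width centred 300 bp to either side. It was higher at the summit than in the flanks at 484 peaks (69.5%). Each flank value of content averages both sides, which differed along the gene. Mean A and T in 20 bp bins was 64.6% at -10 bp from the summit. It was 60.2% at -310 bp and 54.7% at 310 bp, so the excess was smaller over the upstream flank. Upstream peaks had a median of 67.3% and flanks of 57.4%. Downstream peaks had 57.4% and flanks of 58.2%, so the excess over the flanks was seen at the upstream peaks. Sub-threshold peaks had 56.4% upstream, with flanks of 58.4%, and 51.5% downstream, with flanks of 56.4%. Thresholded peaks were thus richer in A and T than sub-threshold peaks on either side. The A and T content was higher at stronger peaks, from 60.9% at the 174 weakest peaks to 69.3% at the 174 strongest. A run of 15 bp or more of A and T occurred in 16.8% of the summit windows and in 7.90% of the flanks. For runs, only the flank toward lower chromosome coordinates was searched, whatever the strand of the gene. At the upstream peaks these shares were 19.8% and 7.26%, and at the downstream peaks 5.56% and 10.4%, the other way round. At peak-free single-direction promoters, 150 bp upstream, they were 12.6% and 8.57%.

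Other thresholded peaks had a similar composition. Thresholded peaks at divergent promoters had a median of 69.3% and those away from coding TSSs 66.3%, while sub-threshold peaks at single-direction promoters had 54.5%. Fly promoters are themselves rich in A and T upstream of the TSS: 12382 single-direction TSSs with no conservative summit within 500 bp had a median of 61.4% at 150 bp upstream. On the upstream side alone, thresholded peaks had a median of 67.3% and sub-threshold peaks one of 56.4%. Whether composition goes with the peaks apart from position was not tested. At 305 peaks with a summit 100 to 300 bp upstream, A and T reached 68.6% in the 20 bp centred at -210 bp and fell to 50.5% in those centred at -50 bp. At the peak-free promoters the same bins held 61.6% and 56.5%.

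**Figure D5:**
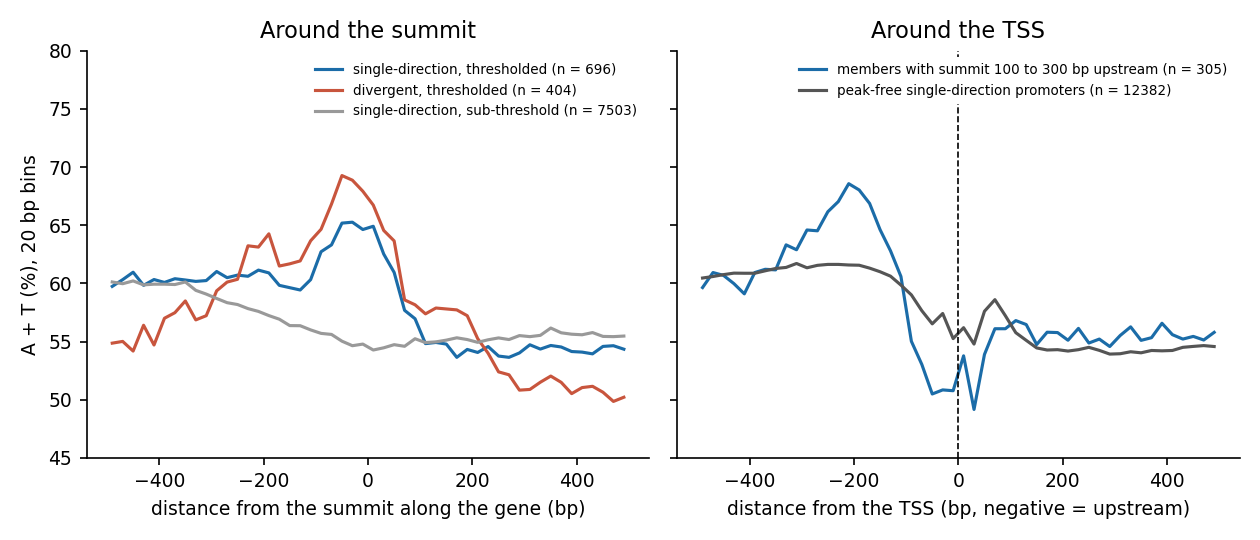
A and T content (%) in 20 bp bins against distance from the summit (left, bp) for 696 thresholded, 404 divergent and 7503 sub-threshold peaks, and against distance from the TSS (right, bp) for 305 peaks with a summit 100 to 300 bp upstream and 12382 promoters without a peak. The vertical axis starts at 45% and the curves of the thresholded peaks rise at the summit, where the sub-threshold curve does not.

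Letters of 13 known promoter and factor motifs, searched on both strands in the same windows, gave few contrasts with the flanks. The TATA box letters TATAAA occurred in 20.3% of the summit windows (95% Wilson interval 17.4 to 23.4) against 10.9% of the flanks, 15.7% of peak-free promoters at 150 bp upstream and 23.0% at divergent promoters. They are themselves A and T only. In windows centred on the TSS instead, TATAAA occurred in 7.04% of those of the 696 peaks and in 16.4% of all 13217 single-direction TSSs. The initiator core TCAGT occurred in 17.0% of summit windows against 18.3% of flanks, and in 38.8% of the TSS windows against 35.7% of all single-direction TSSs. The promoter element CGGTT occurred in 9.77% against 13.3% of flanks, and CGGACG in 1.72% against 1.87%. The BEAF-32 core CGATA, which the DRE letters TATCGATA contain, occurred in 15.5% against 12.4%, and the DRE itself in 1.01% against 0.431%. The E-box CAGCTG occurred in 5.75% against 4.96%, and its extended form AACAGCTG, which contains it, in 2.01% against 1.01%. GAGAGAG of the GAGA factor occurred in 3.30% against 5.10%, the Pho core GCCAT in 12.1% against 14.0% and CTTTT in 40.9% against 39.0%. The motif 1 letters GGTCACAC occurred in 0.718% against 0.144% and CAGGTAG of Zelda in 0.287% against 0.503%. In the TSS windows of the 696 peaks CGGTT occurred in 22.3% against 17.7% of all single-direction TSSs, and CGGACG in 7.90% against 4.27%. CAGCTG was also more frequent there (10.6% against 6.97%), as were AACAGCTG, GAGAGAG (3.88% against 1.66%) and GGTCACAC. CGATA (15.7% against 18.5%), GCCAT (14.4% against 16.2%), TATCGATA, CTTTT and CAGGTAG were less frequent. The 10 words of 8 letters most enriched over flanks at all 2897 peaks were made of A and T only, and each occurred in 4.17% to 6.61% of the 696 windows. Their shares were at most 3.23% in the flanks of these peaks and 2.87% to 4.46% at peak-free promoters. ATTTTAAA, at 4.17%, was close to its 3.65% there. The 696 peaks are among the 2897 from which the words were picked, so an excess over the flanks was partly built in. A match in these windows is a description and not a site.

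The members closest to the limits of the rule were as follows. Just inside the 500 bp window lay Ptip at 500 bp, CG17896 at -494 bp and bark at -492 bp, with pooled signal values of 71.7, 277 and 96.3. Just outside it lay lawc at -501 bp, SsRbeta at -504 bp and CG31612 at 505 bp, with 86.1, 105 and 259. The other-strand TSS was just beyond 1000 bp at CG9992 (1012 bp), Eno (1015 bp) and pk (1026 bp), and just within it at Gnpat (994 bp), CG7656 (993 bp) and Pax (977 bp). Values on the 2 sides of each limit overlapped.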

How the data were processed

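Peak lists were analysed for 2 biological replicates of 1 group. The authors made them on dm6 from sample and control alignments, per the deposited descriptions. Aligner, peak caller, versions, settings and read depths were not given in the sources used here. Depth is thus unknown, and intervals cover the counting of called peaks only. The deposited score (0 to 1000, from the irreproducible discovery rate, IDR) defines the threshold; no thresholded list held a score under 830. The deposited signal value is the authors' peak strength, not scaled between lists, so a pooled value cannot be set against a replicate's. The thresholded lists name a further source that the descriptions do not explain. Column 10, deposited by the authors, gives the summit offset. The pooled ranked lists hold 16 further columns of values of the separate peak sets, which no header ties to a sample and which were not used.

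The conservative list held 3154 peaks, 3143 of them on 2L, 2R, 3L, 3R, 4 and X. Overlapping peaks were reduced to that of highest signal value, which left 2897. Sub-threshold peaks, treated alike, numbered 70233. TSSs came from protein-coding transcripts of Ensembl release 115 (19253 positions) and sequence from RefSeq Release 6. Features under a summit were assigned in the order coding exon, 5' UTR, 3' UTR, other exon, intron, intergenic. Replicate values are those of the overlapping peak of highest signal value in each replicate's ranked list. Shares have 95% Wilson intervals, differences Newcombe intervals, and 5 comparisons were tested by two-sided Fisher's exact tests with Benjamini-Hochberg adjustment at 0.05 (Python 3.11.15, scipy 1.17.1, statsmodels 0.14.6, pandas 2.3.3). The steps were tested on simulated data. Peaks and genes are not independent replicates, and p-values do not measure the spread between embryos.

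The members, lists and tests were chosen with earlier results of these data known. Genes named were those of the 25 strongest peaks and the 3 strongest per 100 bp. Up to 4 per gene list and 3 on either side of the limits were added. So were the 5 with the largest log2 ratio between replicates, in either direction, among the 100 strongest. Not all of these genes are printed, and pnt, ptc, N and Egfr complete a list. Base composition, A and T runs, list positions, subgroups, feature classes and genes with several peaks were chosen after seeing the data and are descriptions with no test. Alternatives were other TSS windows (250 and 1000 bp), upstream windows (500 and 2000 bp), the optimal list, the stronger 50% of peaks, no merging, each replicate left out, other overlaps and, added after seeing the data, other backgrounds, other TSSs and another way of counting genes.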

Additional observations from a re-analysis of the deposited data

How the results depend on the processing

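The lower downstream share kept its direction and its call under all 13 alternatives, and so did the lower share of bound genes under all 10, by the same Fisher's exact tests (differences of -11.2 to -3.33 points for genes). The share within 100 bp was not stable. Its difference passed the threshold with a 250 bp window (-9.31 points), the stronger 50% of peaks (-10.1), a single TSS in the window (-4.56), peaks outside coding exons (-6.85), the strongest 10% of sub-threshold peaks (-8.58), and without either replicate (-6.31 to -4.49). It turned positive with a 1000 bp window (3.44), a 500 bp upstream window (0.116) and the optimal list (1.42). The difference from divergent promoters passed with a 2000 bp upstream window (-5.50) and the stronger 50% (-8.25), was -7.90 to -4.84 without either replicate, and turned positive with a 250 bp window (0.0588). The share found in both replicates turned to 2.02 points for the stronger 50% of peaks. The cause of these changes was not tested. The member count was 365 for the stronger 50%, and 470 to 933 otherwise. The median signal value was 102 in the optimal list, 195 for the stronger 50%, 111 without merging and 74.6 to 79.9 in the lists of single replicates, which are on another scale. Settings on coding exons, on the strongest sub-threshold peaks, on TSSs of all biotypes and on nearest genes were added after seeing the data. With windows of 30 and 100 bp to either side the TATAAA share was 13.9% and 32.8%. No paired analysis was possible because there is 1 group. Depth is unknown, so a promoter without a peak is not shown to be unbound.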
